A study of Mus musculus with 22 samples.

Results

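The 10 genes described here encode the core of Notch signalling and were taken by name from read counts of 53342 genes in miR-21 knockout (KO) and wild-type (WT) mouse pancreatic cancer. They comprise 4 ligands (Jag1, Jag2, Dll1 and Dll4), 4 receptors (Notch1, Notch2, Notch3 and Notch4) and 2 target genes (Hes1 and Hey1). All 10 have a row in both deposited tables. The libraries came from 8 KO tumors and 4 WT tumors, and from 5 KO lines and 5 WT lines. Tumors were snap-frozen whole tissue of Bl6 mice. Each line was grown from a dissociated tumor, passaged at least 8 times to remove fibroblasts, kept in 5% serum and taken for RNA between passage 10 and passage 14. The labels say that the lines of both genotypes carry recombined p53 alleles with loss of heterozygosity, and that no mouse or line was treated. The titles carry the prefix KPC, the usual name of a pancreatic cancer model in which a Cre recombinase acts in the pancreas. The Cre driver and the ages of the mice are not given in the sources used here. By the titles, every tumor came from another animal and so did every line, and 5 animals gave both a tumor and a line.

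Notch receptors are single-pass membrane proteins that are activated by ligands of the Jagged and Delta-like families on a neighbouring cell. Ligand binding lets ADAM proteases and gamma-secretase cut the receptor, and the freed intracellular part joins Rbpj and Mastermind proteins on DNA to switch on genes of the Hes and Hey families. In the pancreas the pathway is known for holding progenitors undifferentiated, for its reactivation in acinar cells that turn ductal, and for its work in blood vessels and their pericytes. MicroRNA-21 (miR-21) represses mRNAs that carry a match to its seed, and Jag1 is among its published targets.

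Library totals were 24547650 to 30106745 counts in KO tumors, 27332257 to 29987227 in WT tumors, 24796473 to 31118113 in KO lines and 25468350 to 28888902 in WT lines. A count of 0 in the smallest library allows up to 0.122 counts per 1000000 (CPM) of its raw total, which is 3 counts and covers counting error only. On the normalized CPM used below, 3 counts were 0.134 CPM in KO line 4. The targeted gene, Mir21a, had 0 counts in all 22 libraries, WT included, so these data do not check the genotype labels. Epithelial markers were present in every library. The 10 endothelial markers summed to 193 to 736 CPM in KO tumors, 238 to 464 CPM in WT tumors, 5.29 to 11.6 CPM in KO lines and 4.19 to 11.6 CPM in WT lines. The 10 fibroblast markers summed to at least 1953 CPM in every tumor and at most 15.2 CPM in every line. In whole tissue, fewer cells of a type and less RNA per cell cannot be told apart.

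The sequences shown next are those through which miR-21 could pair with members of the set. The mature miRNA is given from RefSeq on GRCm38.p6 (chr11:86584120-86584141, minus strand, 22 bases), with its seed, bases 2 to 8, in capitals. Of the 10 members, 2 hold a match of the full 8mer kind, ATAAGCTA, in their longest annotated 3′ UTR (GENCODE vM21, mm10), and the match stands in capitals within 30 bases of transcript.
mmu-miR-21a-5p: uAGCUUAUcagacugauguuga
Jag1 site: ggagtattctcATAAGCTAgttgaatactt
Notch2 site: atgtccaagaaATAAGCTAacttgctcaag
The Jag1 window lies at chr2:137081727-137081756 on the minus strand, and its match starts at base 1279 of a UTR of 1568 bases. The Notch2 window lies at chr3:98148351-98148380 on the plus strand, and its match starts at base 918 of 2917. The other 8 members hold neither this 8mer nor the shorter match ATAAGCT, both read in the sense of the transcript. Over 21044 genes with a 3′ UTR, 7.52% hold ATAAGCT with or without the final A, and 2.15% hold the 8mer. Among 71 other pathway genes 6 hold a match, Il2ra the 8mer and Aak1, Kat2b, Neurl3, Psenen and Rbpj the shorter one. A match is a description of the sequence and not evidence of pairing in these cells.

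Without miR-21, none of the Notch ligands, receptors or targets passed the test in tumors or in lines. Jag1 came nearest, with lower levels in KO tumors than in WT tumors, but not in lines. With edgeR quasi-likelihood tests adjusted over all genes by Benjamini-Hochberg (threshold 0.05), 0 of 10 members passed in tumors, where 0.0110% of 18125 genes did. In lines 0 of the 9 members tested passed, where 0.0143% of 14020 genes did, and Notch3 fell under the low-count filter. At an unadjusted p under 0.05, 1 member, Jag1, was lower in KO tumors, where 16.7% of all genes differed (8.34% higher and 8.39% lower). In lines 0 members differed at that level, where 6.99% of all genes did (3.40% higher and 3.59% lower). DESeq2 called 1 member in tumors, Jag1, where it called 5.07% of the genes with an adjusted p (1.93% of them as lower), and 0 in lines, where it called 0.331%. It gave no adjusted p for Dll4 in tumors. The limma-voom fits called 0 members in both. The median log2 fold change of the members was -0.15 in tumors and 0.11 in lines, against 0.01 and -0.03 over all genes tested. No member separated all KO from all WT libraries in either material. Among all genes, every KO tumor stood above every WT tumor for 1.12% and below for 0.789%, and in lines these shares were 0.742% and 0.521%.

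**Figure D1:**
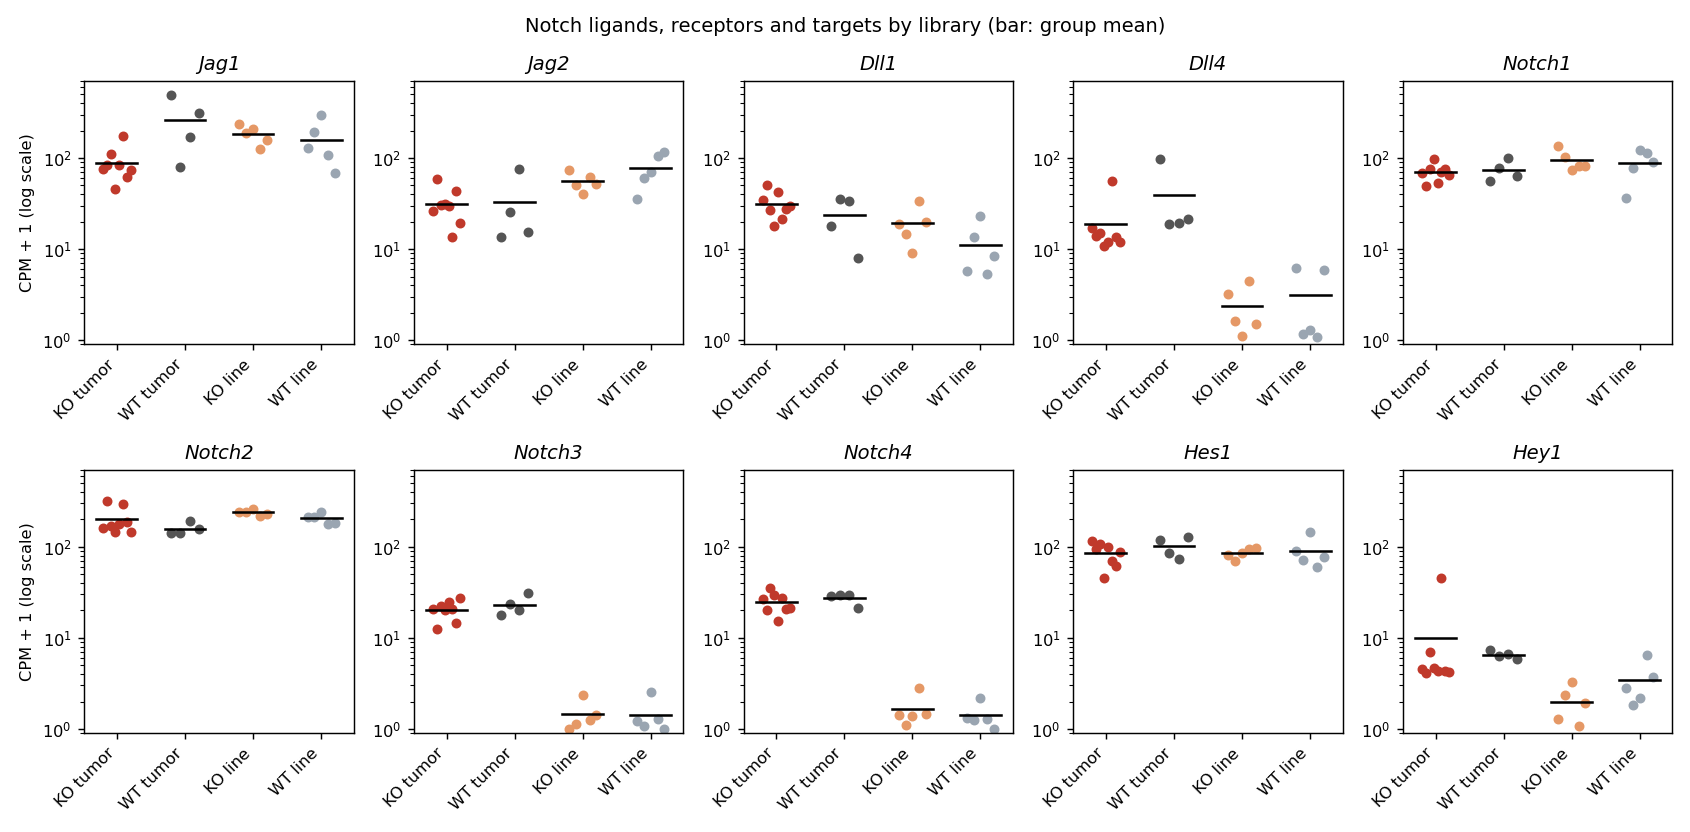
Expression of the 10 members in each library, as CPM + 1 on a log axis, with 1 point per library and a bar at the group mean. Dll4, Notch3 and Notch4 stand far higher in tumors than in lines, while Jag1 and Hes1 span similar levels in both, and 1 KO tumor stands out for Dll4 and Hey1.

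Among the ligands, Jag1 (ENSMUSG00000027276.7, mm10 chr2:137081456-137116644, minus strand), a Jagged ligand expressed by epithelial and vascular cells, had from 45.05 to 175 CPM in the 8 KO tumors, with a median of 77.9 CPM. In WT tumors Jag1 stood at 486, 78.4, 171 and 315 CPM. All 8 KO tumors were below the WT mean, but 4 of them were not below WT tumor 2, and KO tumor 6 exceeded WT tumor 3. The means were 87.6 ± 39.7 CPM in KO tumors (SD, n = 8) and 262 ± 178 CPM in WT tumors (SD, n = 4), a log2 fold change of -1.62 ± 0.42 (SE) that edgeR gave an unadjusted p of 0.0022 and an adjusted p of 0.139. The difference did not pass that test, and DESeq2 gave -1.63 ± 0.45 (SE) with an adjusted p of 0.0130. WT tumor 1 carried much of it, since without that tumor the log2 fold change was -1.13 (edgeR adjusted p = 0.296). Leaving out any other tumor gave -1.93 to -1.52.

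Marker lists of several cell types varied with Jag1 across tumors. The 10 epithelial markers summed to 3958 to 8398 CPM in KO tumors, with a median of 6407 CPM, and to 6347 to 14284 CPM in WT tumors, with a median of 10866 CPM. Across the 12 tumors Jag1 had a Pearson r of 0.36 with the mean of the epithelial list (rho 0.44, and 0.75 without the 2 tumors farthest from the median of that list), and with that mean as a covariate its log2 fold change was -1.80 (edgeR adjusted p = 0.371). With the fibroblast list, which summed to 1953 to 12765 CPM in KO tumors and 2966 to 8014 CPM in WT tumors, Jag1 had an r of -0.52 (rho -0.73, and -0.82 without 2). With the endothelial list Jag1 had an r of -0.54 (rho -0.59, and -0.59 without 2), and with that list as covariate its log2 fold change was -1.42 (edgeR adjusted p = 0.0935). The part of fibroblasts in the result was not tested. Acinar markers summed to 29.2 to 2513 CPM in KO tumors and 16.7 to 485 CPM in WT tumors, and without the 3 tumors highest in them (KO tumors 4 and 8 and WT tumor 4) the log2 fold change of Jag1 was -1.37 (edgeR adjusted p = 0.428).

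In lines, Jag1 stood at 235, 187, 205, 125 and 157 CPM in KO lines. In WT lines it stood at 127, 193, 297, 107 and 66.7 CPM. The groups overlapped throughout, with the highest and the lowest of the 10 values both in WT lines. The means were 182 ± 42.5 CPM in KO lines and 158 ± 90.2 CPM in WT lines (n = 5 each, SD), and the log2 fold change was 0.20 ± 0.35 (SE, edgeR adjusted p = 0.905). The difference between the KO effects in tumors and in lines was -1.78 ± 0.59 on the log2 scale (SE), with an unadjusted p of 0.0063 and an adjusted p of 0.447 in edgeR. In that test 0 of 10 members and 0% of 18662 genes passed, 1 member, Jag1, had an unadjusted p under 0.05 as did 8.25% of all genes, and DESeq2, which called 0.361% of all genes, and limma-voom called 0 members.

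Dll4 (ENSMUSG00000027314.6, chr2:119325784-119335962, plus strand) is the Delta-like ligand best known from the tips of sprouting vessels. It stood at 9.84 to 55.5 CPM in KO tumors, with a median of 12.8 CPM, and at 96.3, 17.9, 18.3 and 20.6 CPM in WT tumors. All KO tumors but KO tumor 6 were below every WT tumor, and WT tumor 1 had 4.67 times the level of the next WT tumor. The log2 fold change was -1.13 ± 0.57 (SE, edgeR adjusted p = 0.342), and -1.81 with the epithelial list as covariate (adjusted p = 0.386). It was -0.09 without WT tumor 1 and -1.66 without KO tumor 6, and without both, an alternative chosen after the values were seen, it was -0.62 ± 0.19 (SE, edgeR adjusted p = 0.212). In lines Dll4 rested on few counts in several libraries, from 2 counts in WT line 4 to 140 in WT line 1. It had 2.21, 0.630, 0.115, 3.43 and 0.496 CPM in KO lines and 5.19, 0.169, 0.282, 0.0771 and 4.88 CPM in WT lines.

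Jag2, the second Jagged ligand (chr12:112907819-112929776, minus strand), had 12.5 to 58.0 CPM in KO tumors with a median of 29.2 CPM, and 12.6, 24.8, 75.7 and 14.5 CPM in WT tumors. It had 72.3, 50.0, 38.9, 60.2 and 51.4 CPM in KO lines and 34.1, 59.7, 69.3, 103 and 115 CPM in WT lines. Both pairs of groups overlapped, and the log2 fold changes were -0.09 ± 0.50 in tumors and -0.48 ± 0.30 in lines (SE, edgeR adjusted p = 0.946 and 0.731).

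Dll1, a Delta-like ligand of embryonic progenitors (chr17:15367354-15376872, minus strand), had 16.7 to 49.6 CPM in KO tumors with a median of 27.9 CPM, and 16.9, 34.5, 32.6 and 6.98 CPM in WT tumors. In KO lines it had 17.9, 13.6, 8.17, 32.3 and 18.7 CPM, and in WT lines 4.82, 12.6, 21.97, 4.28 and 7.34 CPM. Dll1 had a higher mean in KO than in WT libraries of both materials, with log2 fold changes of 0.40 ± 0.40 in tumors and 0.83 ± 0.49 in lines (SE), but neither passed (edgeR adjusted p = 0.645 and 0.725). Reads of the opposite-strand genes A930024N18Rik and Gm14207 amounted to 4.62% of the Dll1 counts and 7.02% of the Dll4 counts, and the strand setting of the counting is not given in the sources used here.

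**Figure D2:**
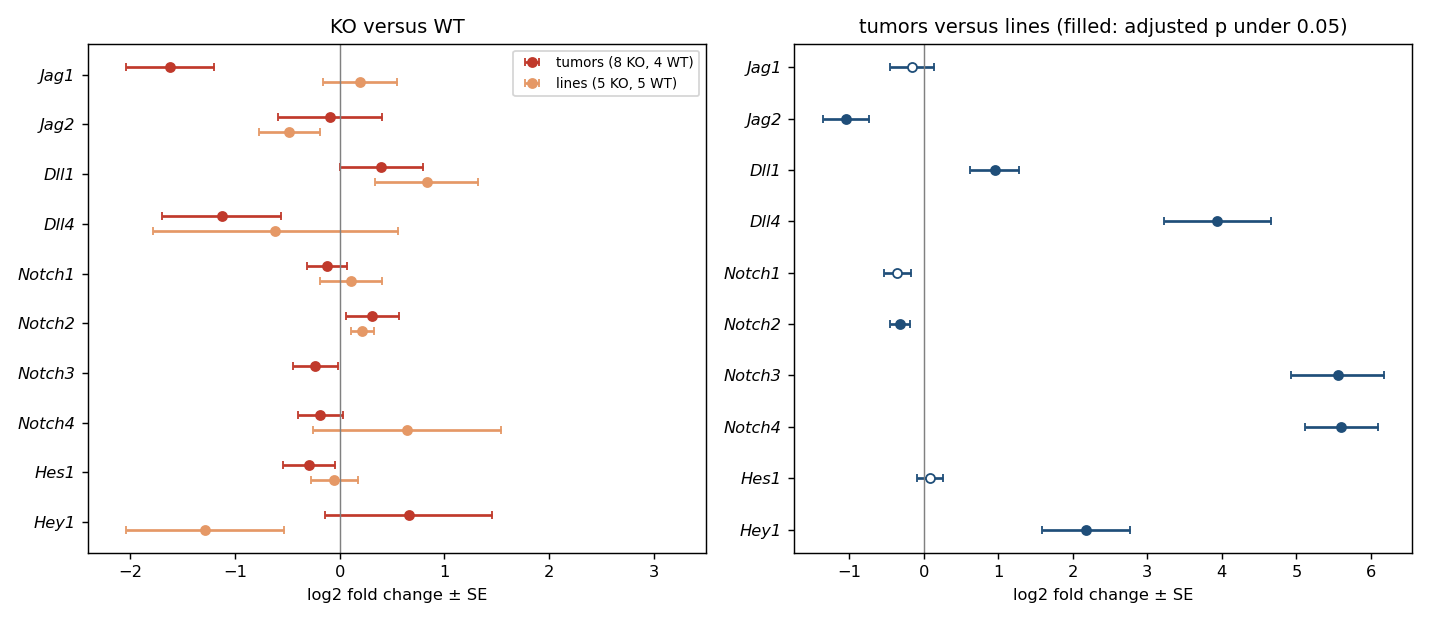
Log2 fold changes of the members with their standard errors from edgeR, on the left for KO over WT in tumors and in lines (no value for Notch3 in lines), and on the right for tumors over lines, where filled points have an adjusted p under 0.05. Jag1 in tumors lies farthest from 0 on the left at -1.62, and Notch3 and Notch4 lie above 5 on the right.

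Among the receptors, Notch2 (ENSMUSG00000027878.11, chr3:98013527-98150361, plus strand), the other member with an 8mer match, had 143 to 320 CPM in KO tumors with a median of 173 CPM. In WT tumors it stood at 140, 140, 192 and 157 CPM. KO tumors 2 and 6, at 320 and 291 CPM, stood above every WT tumor, and the rest overlapped them. In KO lines Notch2 had 240.0, 240.1, 261, 216 and 228 CPM, against 211, 209, 239, 179 and 183 CPM in WT lines. Of the 5 KO lines 3 lay above every WT line, and all 5 lay above the WT mean. The log2 fold changes of 0.31 ± 0.26 in tumors and 0.22 ± 0.11 in lines (SE) did not pass (edgeR adjusted p = 0.563 and 0.720), and in tumors the value was -0.02 with the epithelial list as covariate.

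Notch1, the receptor with the broadest known role in cell fate (chr2:26457903-26516663, minus strand), had 48.6 to 96.4 CPM in KO tumors with a median of 68.5 CPM, and 55.2, 75.8, 98.1 and 63.1 CPM in WT tumors. It had 135, 102, 73.5, 79.9 and 81.2 CPM in KO lines and 35.4, 77.2, 123, 112 and 89.4 CPM in WT lines. Its groups overlapped in both materials, with log2 fold changes of -0.12 ± 0.19 in tumors and 0.11 ± 0.30 in lines (SE, edgeR adjusted p = 0.791 and 0.941).

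Notch3, the receptor of pericytes and vascular smooth muscle (chr17:32120820-32166852, minus strand), had 11.6 to 26.5 CPM in KO tumors with a median of 19.5 CPM, and 16.8, 22.3, 19.1 and 30.3 CPM in WT tumors. Notch4, a receptor largely of endothelium (chr17:34564268-34588503, plus strand), had 14.3 to 34.6 CPM in KO tumors with a median of 22.9 CPM, and 27.6, 28.5, 28.5 and 20.02 CPM in WT tumors. Both overlapped between genotypes, with log2 fold changes of -0.23 ± 0.21 and -0.18 ± 0.21 (SE, edgeR adjusted p = 0.616 and 0.703). In KO lines Notch3 stood at 0, 0.140, 1.38, 0.267 and 0.426 CPM, and in WT lines at 0.223, 0.0843, 1.57, 0.270 and 0 CPM. Notch4 in KO lines stood at 0.436, 0.105, 0.383, 1.83 and 0.461 CPM, and in WT lines at 0.334, 0.253, 1.17, 0.270 and 0 CPM. Most of these line values rest on few counts. In lines the log2 fold change of Notch4 was 0.64 ± 0.89 (SE, edgeR adjusted p = 0.878).

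Of the targets, Hes1 (ENSMUSG00000022528.7, chr16:30064384-30067796, plus strand), a repressor of differentiation genes and the best-known Notch target, had 44.5 to 114 CPM in KO tumors with a median of 89.1 CPM. In WT tumors it stood at 119, 83.4, 72.8 and 128 CPM. In KO lines it had 80.3, 69.4, 85.2, 93.6 and 96.7 CPM, and in WT lines 89.0, 71.0, 145, 59.2 and 76.2 CPM. Genotypes overlapped in both materials, and the 5 KO lines spanned a narrower range than the 5 WT lines. The log2 fold changes were -0.29 ± 0.25 in tumors and -0.05 ± 0.22 in lines (SE, edgeR adjusted p = 0.579 and 0.965).

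Hey1 (ENSMUSG00000040289.8, chr3:8663359-8667256, minus strand), a related repressor prominent in vessels, stood apart in 1 library. KO tumor 6 had 44.4 CPM, while the other 7 KO tumors had 3.10 to 6.04 CPM and WT tumors had 6.44, 5.28, 5.58 and 4.86 CPM. Of the 8 KO tumors 6 were below every WT tumor. The log2 fold change of 0.66 ± 0.80 (SE, edgeR adjusted p = 0.717) rested on that library, since without it the value was -0.60 ± 0.24 (edgeR adjusted p = 0.208). DESeq2, run with its default handling of outlying counts, gave -0.57 with an adjusted p of 0.0877, near the edgeR value without KO tumor 6. In lines Hey1 stood at 0.290, 1.33, 2.30, 0.0891 and 0.922 CPM in KO lines and at 1.82, 0.843, 1.21, 5.55 and 2.68 CPM in WT lines. All 5 KO lines were below the WT mean, but the log2 fold change of -1.29 ± 0.76 (SE) did not pass (edgeR adjusted p = 0.725).

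Between whole tumors and cultured cancer cells, most Notch genes differed, at a share near that of all genes. Notch3, Notch4, Dll4, Hey1 and Dll1 rose in tumors relative to lines, and Jag2 and Notch2 fell, while Jag1, Notch1 and Hes1 did not pass. Thus 7 of 10 members passed in edgeR, where 65.5% of 18662 genes did. Of all genes 38.5% were higher and 27.0% lower, and their median log2 fold change was 0.15, against 0.52 for the members. For Notch3, Notch4 and Dll4 every one of the 12 tumors exceeded every one of the 10 lines, an order that 12.2% of all genes showed.

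Notch4 averaged 24.4 ± 5.70 CPM in tumors and 0.523 ± 0.554 CPM in lines (SD, n = 12 and 10), a log2 fold change of 5.60 ± 0.49 (SE, edgeR adjusted p = 9.06e-09). Notch3 averaged 20.2 ± 5.16 CPM in tumors and 0.436 ± 0.565 CPM in lines, a log2 fold change of 5.55 ± 0.63 (edgeR adjusted p = 2.39e-07). Dll4 averaged 24.7 ± 25.7 CPM in tumors and 1.75 ± 2.04 CPM in lines, a log2 fold change of 3.94 ± 0.72 (edgeR adjusted p = 7.86e-05). These 3 genes are known from vessels, and all 10 endothelial and all 10 pericyte and smooth muscle markers also rose in tumors. That rise was not particular to vessels. All 10 fibroblast, all 10 macrophage and all 10 lymphocyte markers rose too, as did 8 of the 9 acinar markers tested. The pericyte and smooth muscle list summed to 267 to 1992 CPM in KO tumors, 273 to 1082 CPM in WT tumors, 1.92 to 41.8 CPM in KO lines and 1.73 to 22.8 CPM in WT lines. Of the 10 endothelial markers, 2 were at 0 in every KO line and 2 in every WT line. The part of any of these cell types in the result was not tested.

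Hey1 had a log2 fold change of 2.17 ± 0.59 between tumors and lines and Dll1 one of 0.95 ± 0.33 (SE, edgeR adjusted p = 0.0031 and 0.0145). Without KO tumor 6 the Hey1 value was 1.56 (adjusted p = 0.0024), and from WT libraries alone it was 1.19 (adjusted p = 0.265). The Dll1 call was lost in each genotype alone (adjusted p = 0.141 in KO and 0.0585 in WT libraries). Jag2 fell by 1.04 ± 0.31 on the log2 scale (SE, edgeR adjusted p = 0.0060), and 9 of 12 tumors lay below every line, but its call was lost in KO libraries alone (adjusted p = 0.0754). Notch2 fell by 0.31 ± 0.14 (SE) with an adjusted p of 0.0478 in edgeR. That call was lost in 22 of its 30 alternatives, among them RLE factors (-0.22, adjusted p = 0.148) and DESeq2 (-0.22, adjusted p = 0.155). Jag1, Notch1 and Hes1 did not pass, with log2 fold changes of -0.16 ± 0.30, -0.35 ± 0.18 and 0.09 ± 0.17 (SE, edgeR adjusted p = 0.646, 0.0906 and 0.666).

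For Jag1 the tumors stood differently to the lines in the 2 genotypes. KO tumors against KO lines gave a log2 fold change of -1.05 ± 0.38 (SE) that passed (edgeR adjusted p = 0.0219, with 57.1% of all genes called), and WT tumors against WT lines gave 0.73 ± 0.45 (SE), which did not (adjusted p = 0.190, with 46.5% called). The difference of these values is the contrast of -1.78 given for Jag1 above, which did not pass.

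Set against each other per kilobase of exon, Hes1 had the highest mean level in all 4 groups, at 41.2 ± 11.9 CPM per kb in KO tumors, 49.5 ± 13.2 in WT tumors, 41.7 ± 5.35 in KO lines and 43.2 ± 16.4 in WT lines (SD). Jag1 came next in WT tumors and in both groups of lines, at 45.02 ± 30.5 CPM per kb in WT tumors, 31.2 ± 7.30 in KO lines and 27.2 ± 15.5 in WT lines, and Notch2 came next in KO tumors, at 18.4 ± 6.34. In each of these cases the libraries of the first and second gene overlapped. In KO lines Notch2 stood clear of the next gene, Jag2, with no overlap between their libraries, at 21.98 ± 1.56 against 7.83 ± 1.79 CPM per kb. In WT lines these genes did not overlap either, but only narrowly, at 18.9 ± 2.27 against 10.9 ± 4.70. Dll4, Hey1, Notch3 and Notch4 took the last 4 places in both groups of lines, all below 1 CPM per kb on average. In tumors all neighbours in the order overlapped, except Notch3 over Hey1 in WT tumors, at 2.74 ± 0.73 and 1.70 ± 0.20 CPM per kb.

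Per kilobase of annotated exon, Notch2 supplied most receptor RNA in every library, though only 51.4% in KO tumor 4. These shares depend on the lengths used, 14232 exonic bases for Notch1 and 10782 for Notch2, and other lengths were not tried. Notch2 made up 63.2 ± 9.63% of the summed CPM per kb of the 4 receptors in KO tumors, 56.7 ± 2.61% in WT tumors, 76.6 ± 4.34% in KO lines and 75.7 ± 8.05% in WT lines (SD). Notch3 and Notch4 together with Notch1 made up the rest of the tumors, Notch3 at 8.78 ± 3.20% in KO tumors and 10.8 ± 3.08% in WT tumors, and Notch4 at 10.5 ± 3.20% in KO tumors and 12.8 ± 2.52% in WT tumors. In lines both stayed at or below 0.874% in each library.

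Of the summed ligand RNA, Jag1 made up 47.0 ± 7.88% in KO tumors and 64.8 ± 18.0% in WT tumors (SD), and 71.0 ± 9.90% in KO lines and 63.3 ± 17.4% in WT lines. Dll1 made up 24.0 ± 7.46% in KO tumors and 12.0 ± 11.6% in WT tumors. Jag1 ranged from 37.4 to 58.8% over KO tumors and from 45.1 to 85.6% over WT tumors, so the groups overlapped. WT lines 4 and 5 stood out among the lines with Jag2 at 43.2% and 53.2% of ligand RNA, while the other 8 lines had 13.1 to 22.3%. The shares were not tested.

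**Figure D3:**
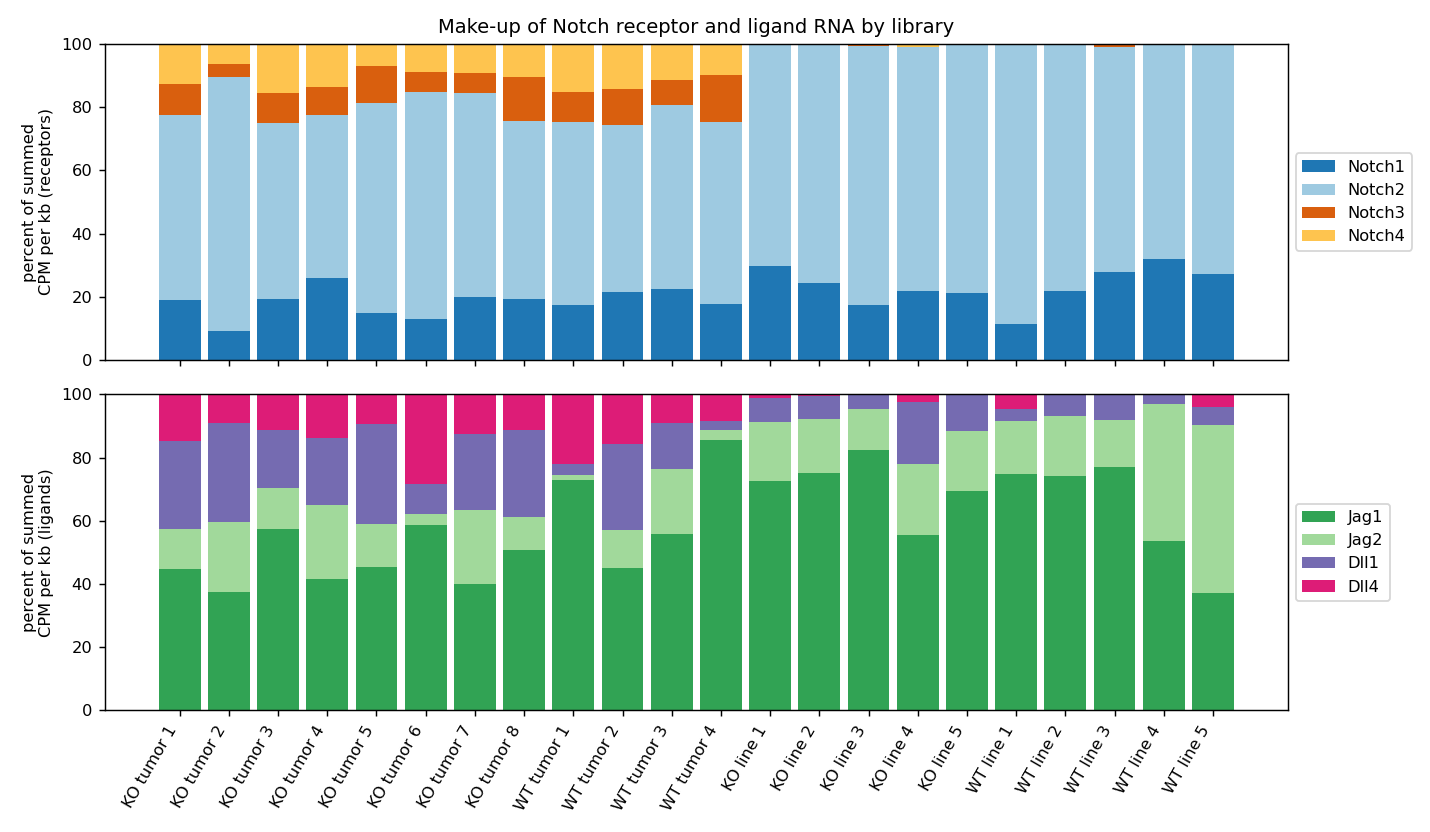
Make-up of receptor RNA (top) and ligand RNA (bottom) in each library, as percent of the summed CPM per kb of the 4 genes of each family. Notch3 and Notch4 show in every tumor and hardly in any line, and WT tumors 1 and 4 have the largest Jag1 shares among tumors, at 73.0% and 85.6%.

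Within the 12 tumors, members moved together in a few pairs, given here as descriptions over log2 CPM of libraries that share no animal. Jag1 and Dll4 had a Pearson r of 0.82 (rho 0.84, and 0.75 without the 2 tumors farthest from the median of Jag1). Over the 10 lines the same pair had an r of -0.43 (rho -0.32, and -0.10 without 2). Dll4 and Hey1 had an r of 0.68 (rho 0.75, and 0.66 without 2), and KO tumor 6 was among the 2 highest for both. In lines that pair had an r of -0.42 (rho -0.22, and -0.91 without 2). Notch1 and Notch4 had an r of 0.61 (rho 0.75, and 0.55 without 2), and Notch1 and Hes1 one of -0.63 (rho -0.60, and -0.73 without 2). Neither pair held in lines, with an r of 0.03 for Notch1 and Notch4 and -0.006 for Notch1 and Hes1. Over the 10 lines Jag1 and Notch2, the members with an 8mer match, had an r of 0.82 (rho 0.72, and 0.78 without 2). Over the 12 tumors they had an r of -0.008 (rho 0.06, and 0.50 without 2). Dll1 and Hey1 had an r of -0.84 over the lines (rho -0.82, and -0.83 without 2) and -0.25 over the tumors (rho -0.54, and -0.37 without 2). These pairs were chosen after their values were seen, from 45 pairs of members in tumors and as many in lines.

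Against cell type markers in tumors, Notch3 had an r of 0.81 with the mean of the pericyte and smooth muscle list (rho 0.76, and 0.80 without 2), and lower ones of 0.63 with the macrophage list (rho 0.60, and 0.64 without 2) and 0.56 with the acinar list (rho 0.59, and 0.79 without 2). Dll4, by contrast, had an r of -0.51 with the endothelial list (rho -0.51, and -0.65 without 2), and Notch4 one of 0.35 (rho 0.48, and 0.18 without 2). The tumors with most Dll4, WT tumor 1 and KO tumor 6, had endothelial list means of 4.30 and 4.02 log2 CPM, while the 12 tumors ran from 3.96 to 5.97. Hes1 had an r of 0.54 with the epithelial list (rho 0.62, and 0.73 without 2).

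**Figure D4:**
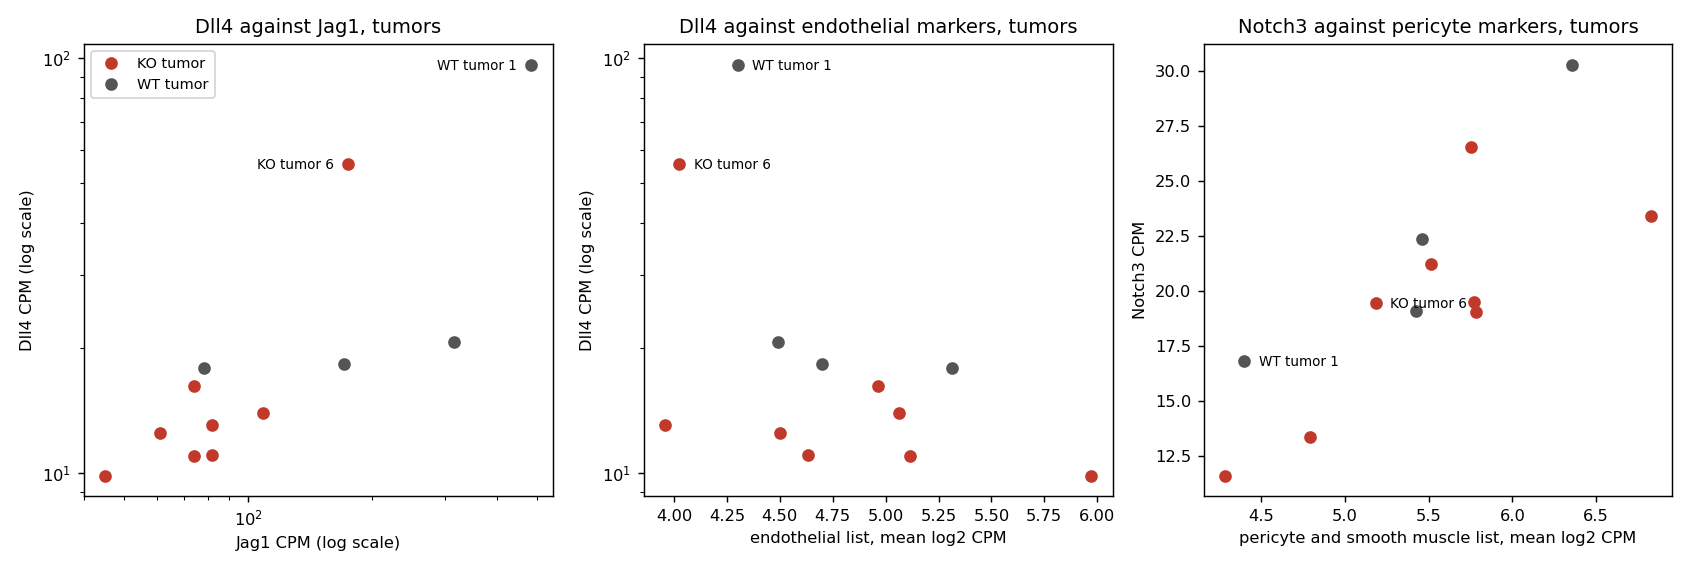
Dll4 against Jag1 (left, CPM on log axes), Dll4 against the mean log2 CPM of 10 endothelial markers (middle, Dll4 on a log axis) and Notch3 against the mean log2 CPM of 10 pericyte and smooth muscle markers (right), with 1 point for each of 8 KO and 4 WT tumors. WT tumor 1 and KO tumor 6 have the most Dll4 at low endothelial means of 4.30 and 4.02, and Notch3 is higher where pericyte markers are higher.

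Tumors and lines of the same animal can be set side by side in 5 cases. In KPC190 (WT tumor 1 and WT line 1), Dll4 stood at 96.3 CPM in the tumor and 5.19 CPM in the line, each the highest of its material, and Jag1 at 486 CPM in the tumor and 127 CPM in the line. KPC232, also WT, had Jag1 at 171 CPM in the tumor and 107 CPM in the line, and KPC202, the third WT animal, had 78.4 CPM in the tumor and 193 CPM in the line. In both KO animals Jag1 was lower in the tumor, at 81.8 CPM in the tumor and 235 CPM in the line for KPC21171 and at 109 and 157 CPM for KPC2157. Notch3, Notch4 and Dll4 were higher in the tumor in all 5 animals, and Jag2 was lower in the tumor in all 5. Dll1 was likewise higher in all 5 tumors, by 0.45 to 2.92 on the log2 CPM scale, and Hes1 was higher in all 5, by 0.15 to 0.41. Over all libraries Hes1 had a log2 fold change of 0.09 between tumors and lines (edgeR adjusted p = 0.666). The median over all genes was 0.15. How many of all genes kept 1 direction in all 5 animals was not counted.

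The wider pathway was followed in 71 other genes that make, cut, carry, switch off or read Notch signals. None passed between genotypes in edgeR, with 0 of 66 in tumors, 0 of 58 in lines and 0 of 66 for the difference between them. At an unadjusted p under 0.05, 4 were higher and 11 lower in KO tumors, and 4 were higher and 1 lower in KO lines, and for the difference 1 was higher and 6 lower. Over all genes, 8.34% were higher and 8.39% lower in KO tumors at that level, 3.40% were higher and 3.59% lower in KO lines, and 8.25% differed in either direction for the difference. DESeq2 called 4 in tumors, 0 in lines and 1 for the difference, and limma-voom called 0 in all of these. Of all genes with an adjusted p, DESeq2 called 5.07% in tumors, 0.331% in lines and 0.361% for the difference. The median log2 fold change was -0.03 in tumors and 0.08 in lines, against 0.01 and -0.03 over all genes tested.

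Dlk1, an imprinted non-canonical ligand, stood at 0.417 to 2.68 CPM in KO tumors with a median of 1.01 CPM, and at 24.0, 2.25, 15.6 and 136 CPM in WT tumors. KO tumors 3, 5 and 7 overlapped WT tumor 2. Its log2 fold change of -5.02 ± 0.84 (SE) had an edgeR adjusted p of 0.0754. Dlk1 passed in 4 of 22 alternatives. Its edgeR adjusted p was 0.0210 without WT tumor 2, 0.0452 without KO tumor 2 and 0.0333 with all 22 libraries in 1 fit. In DESeq2 it was 2.38e-07. Dlk1 did not pass in the other 18, among them limma-voom, RLE factors and both marker covariates.

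Aph1b and Aph1c, closely related subunits of gamma-secretase between which reads may be split, both had higher means in KO tumors. Aph1b had 6.72 to 28.4 CPM in KO tumors with a median of 8.97 CPM, and 2.56, 6.63, 3.01 and 3.31 CPM in WT tumors. All 8 KO tumors thus lay above all 4 WT tumors, narrowly so for WT tumor 2, an order that 1.12% of all genes showed. Its log2 fold change was 1.56 ± 0.43 and that of Aph1c 1.24 ± 0.41 (SE, edgeR adjusted p = 0.147 and 0.194, and in DESeq2 0.0083 and 0.0394). Furin, the convertase that matures Notch receptors, had a log2 fold change of -0.61 ± 0.21 (SE, edgeR adjusted p = 0.196).

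Heyl, a Hey family target, had 5.36 to 11.02 CPM in KO tumors with a median of 7.20 CPM, and 11.2, 14.7, 11.2 and 11.02 CPM in WT tumors. Of the 8 KO tumors 7 were below every WT tumor, and KO tumor 3 matched the lowest of them. Its log2 fold change was -0.67 ± 0.19 (SE, edgeR adjusted p = 0.150, DESeq2 0.0119). Nrarp, a target that feeds back to dampen Notch, and Myc and Ccnd1, a transcription factor and a cyclin whose genes Notch can switch on, had log2 fold changes of -0.86 ± 0.31, -0.70 ± 0.29 and -0.74 ± 0.31 in KO tumors (SE, edgeR adjusted p = 0.206, 0.254 and 0.262).

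In the nucleus, the coactivators Maml2 and Maml3 had log2 fold changes of 0.48 ± 0.17 and 0.60 ± 0.21 in KO tumors and the acetyltransferase Kat2a one of -0.45 ± 0.20 (SE, edgeR adjusted p = 0.217, 0.200 and 0.286). The corepressor genes with the smallest p values were Kdm5a (-0.39 ± 0.16), Ncor1 (-0.23 ± 0.11) and Tle1 (0.39 ± 0.20) on the log2 scale, with edgeR adjusted p of 0.260, 0.303 and 0.350. Numb, which antagonises Notch, had -0.30 ± 0.13, and its relative Numbl 0.38 ± 0.19 (SE, edgeR adjusted p = 0.284 and 0.326). The ligand ubiquitin ligases Mib1, Mib2 and Neurl3 and the receptor glycosyltransferases Lfng, Rfng and Poglut1 had edgeR adjusted p of 0.538 or more in tumors, and so did Dlk2, while Dner, at 0.434, had a mean below 1 CPM in both groups of tumors.

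Between tumors and lines, 38 of 66 wider pathway genes passed, 22 higher and 16 lower, where 65.5% of all genes passed, 38.5% higher and 27.0% lower. Their median log2 fold change was -0.03, against 0.15 over all genes. By list, 2 of 3 other ligands, 1 of 5 genes of ligand endocytosis, 2 of 5 of receptor glycosylation and 5 of 11 of turnover rose, and 1, 1, 2 and 1 of them fell. Of 12 other targets 7 rose and 3 fell. Heyl rose, at 5.36 to 14.7 CPM in tumors, and was listed at 0 in 9 of 10 lines. Il2ra, an interleukin receptor gene of lymphocytes, also rose, at 0.233 to 7.37 CPM in tumors and 0 counts in all 10 lines, and the lymphocyte markers rose with it, all 10 of 10. Dtx1, a Notch ubiquitin ligase, and Mfng, a fringe glycosyltransferase, had 0.139 to 29.5 and 2.80 to 18.6 CPM in tumors and at most 0.282 and 0.169 CPM in lines. Lfng, a second fringe enzyme, rose by 2.13 ± 0.20 on the log2 scale and the ligand ligase Neurl1a by 3.23 ± 0.49 (SE, edgeR adjusted p = 2.23e-08 and 1.06e-05), while its relative Neurl1b fell by 1.16 ± 0.37 (edgeR adjusted p = 0.0090). Dtx3, a Deltex relative of Dtx1, rose by 1.06 ± 0.24 (SE, edgeR adjusted p = 5.76e-04).

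Of the non-canonical ligands Dlk1 rose by 4.89 ± 0.83 on the log2 scale (SE, edgeR adjusted p = 3.49e-05), at 0.417 to 136 CPM in tumors and 0 to 0.779 CPM in lines. Its relative Dlk2 fell by 2.29 ± 0.75 (SE, edgeR adjusted p = 0.0109), at 0.036 to 3.63 CPM in tumors and 0.684 to 18.3 CPM in lines. Abcc10, on the other strand, has 581% of the Dlk2 counts over its whole length, but shares only 51 exonic bases with Dlk2.

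Of 8 genes of the nuclear complex 5 fell in tumors, 0 rose and 3 did not pass, with a median log2 fold change of -0.54 and values of -0.70 ± 0.12 for Maml2 and -0.65 ± 0.09 for the acetyltransferase Ep300 (SE, edgeR adjusted p = 6.16e-05 and 2.80e-06). Every tumor lay below every line for Ep300, an order that 5.58% of all genes showed. Of 12 corepressors 3 fell, 1 rose and 8 did not pass, Ncor1 with -0.62 ± 0.10 and Cir1 with 0.56 ± 0.16 (SE, edgeR adjusted p = 1.20e-05 and 0.0050). Scrn3, on the other strand, has 208% of the Cir1 counts over its whole length, but shares only 101 exonic bases with Cir1. Myc and Ccnd1 fell by 1.30 ± 0.20 and 1.14 ± 0.19 on the log2 scale (SE, edgeR adjusted p = 9.11e-06 and 2.68e-05). Of the 10 cleavage genes 4 rose and 0 fell, led by Aph1c at 1.62 ± 0.32 and Furin at 1.07 ± 0.15 (SE, edgeR adjusted p = 1.45e-04 and 4.63e-06). Over all genes, 38.5% rose and 27.0% fell by the same test.

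**Figure D5:**
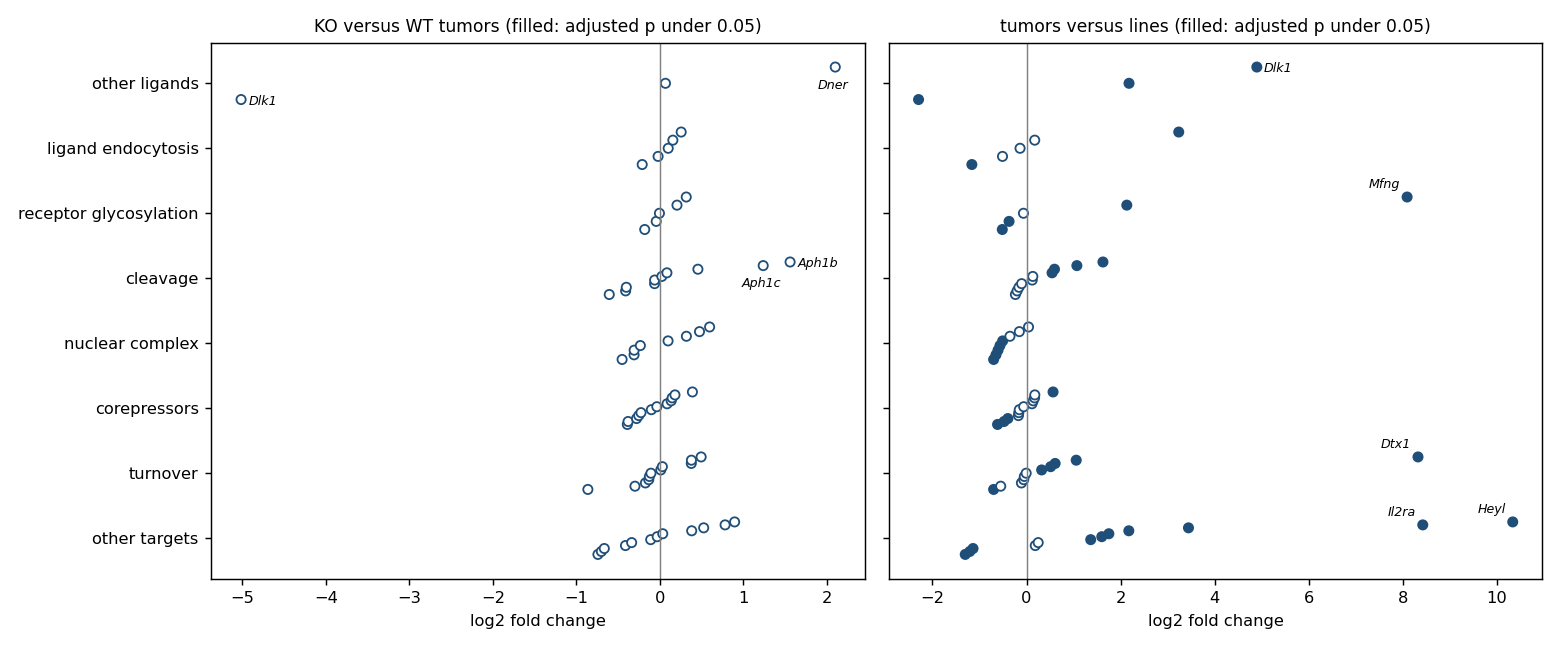
Log2 fold changes of the tested genes of 8 wider pathway lists, for KO over WT tumors (left) and tumors over lines (right), with 1 point per gene and filled points at an edgeR adjusted p under 0.05. No point is filled on the left, where Dlk1 lies lowest at -5.02, and the points beyond 8 on the right belong to genes at or near 0 counts in lines, whose fitted values depend on the prior count and bound nothing.

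Over the 12 tumors and 15261 genes with a mean of at least 1 CPM, genes whose log2 CPM was among the most like that of Jag1 were Dusp9 (r = 0.93) and Psmd14 (0.93). For Dll4 the genes most like it were Ggct (0.95), Cbfb (0.94) and Wrn (0.94), which held 0.60 to 0.70 without the 2 tumors farthest from the median of Dll4. For Notch3 they were Usp11 (0.94), Luc7l3 (0.94) and Desi1 (0.92), and for Hes1 Naa10 (0.92), Ppp1r3b (0.92) and Gm45148 (0.91). Over the 10 lines and 12620 genes, the leading gene was 4931406P16Rik for Jag1 (0.97), Lyplal1 for Notch1 (0.90) and Zscan2 for Hes1 (0.96). These are the highest values of every gene compared, and are given as descriptions.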

How the data were processed

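RNA was extracted with TRIzol, made into libraries with a stranded KAPA mRNA kit and read as single-end reads of 75 bases, per the labels' protocols. The submitters' processing notes name bcl2fastq (1.9.0), Trim Galore, STAR (version not given in the sources used here) and mm10. The deposited values are the authors' raw read counts per gene. How counting treated strand and which annotation it used are not given in the sources used here. Of the 53342 rows, 105 had no symbol (0.00944% of counts) and stayed in. No libraries were identical, and every pair differed by more than sampling noise (chi-square of at least 49.8 for each degree of freedom).

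Counts were tested with edgeR 4.0.16 in R 4.3.3 (TMM factors, filterByExpr by group, robust quasi-likelihood fits, Benjamini-Hochberg over all genes, adjusted p under 0.05), which was tested on simulated data. Tumors and lines were fitted apart. The difference between KO effects and tumors against lines used all 22 libraries, with genotypes weighted equally in the last. CPM use TMM factors over all libraries, and log2 CPM a prior count of 1. Exon lengths and 3′ UTRs are from GENCODE vM21. Alternatives were DESeq2 1.42.0, limma-voom (limma 3.58.1), RLE factors, no low-count filter or a mean CPM of at least 1, marker covariates and left-out libraries.

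Named genes are the 10 members, and of each other pathway list the genes called between genotypes, the 3 with the smallest p in tumors and the 2 largest called changes between tumors and lines. Members, lists and rules were chosen with earlier results of these data known. Same-animal tumor and line residuals correlated at -0.02 to 0.34 over 14703 genes, so the animal, named in the titles, was a block in an alternative (consensus correlation 0.287). Some items are not reported here.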

Additional observations from a re-analysis of the deposited data

Results flagged for a closer look

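A library standing apart from the others of its group was looked for in 40 sets of 1 member and 1 group, and 7 were found. The cut-off gives about 1 in 20 by chance for normally distributed values. CPM need not be so distributed, least of all at low counts, so the 7 are not compared with chance. Hey1 in KO tumor 6, at 44.4 CPM, stood above the next KO tumor at 6.04 CPM. Dll4 in the same tumor, at 55.5 CPM, stood above the next at 16.2 CPM, and Dll4 in WT tumor 1, at 96.3 CPM, above the next WT tumor at 20.6 CPM. Notch4 in WT tumor 4, at 20.02 CPM, lay below the other WT tumors, which began at 27.6 CPM. The other sets are of low levels in lines, where the libraries that stood apart had 41, 29 and 39 counts in the order given next. Notch4 stood at 1.83 CPM in KO line 4, with the next at 0.461 CPM, and at 1.17 CPM in WT line 3, with the next at 0.334 CPM. Notch3 stood at 1.57 CPM in WT line 3, with the next at 0.270 CPM.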

How the results depend on the processing

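Of 940 alternative values of the members, 880 kept direction and call, 26 lost a call, 5 gained one and 29 changed sign, none of them a called value; the cause was not tested. Between genotypes, members called were 0 throughout except 1 (Jag1) with DESeq2 in tumors. Other pathway genes called were 4 with DESeq2 and 1 with all 22 libraries in tumors, 0 to 1 leaving out a library, and 1 with DESeq2 for the difference between KO effects. Tumors against lines, 6 to 8 members and 35 to 39 pathway genes were called leaving out a library, and 4 and 25 from WT libraries alone. Sign changes in tumors were Hey1 -0.57 (DESeq2), -0.17 (limma-voom), -0.97 (epithelial covariate), -0.51 (without KO tumor 6 and WT tumor 1) and -0.60 to 0.79 leaving out a library, Jag2 0.15 (limma-voom) and -0.35 to 0.84, Notch2 -0.021 (epithelial covariate) and Notch1 -0.23 to 0.077. In lines they were Dll4 0.22 (limma-voom) and -1.29 to 0.037, Hes1 0.012 (limma-voom) and -0.16 to 0.21, Notch1 -0.080 to 0.27 and Notch4 -0.23 to 1.54. For the difference between KO effects, leaving out a library gave Dll4 -1.12 to 0.55, Notch1 -0.35 to 0.001, Notch2 -0.015 to 0.23, Notch3 -1.75 to 0.84 and Notch4 -1.67 to 0.081. Tumors against lines, Jag1 was 0.73 from WT libraries alone and -0.40 to 0.017 leaving out a library, and Hes1 -0.017 from KO libraries alone. No paired analysis was possible because KO and WT libraries share no animal, as far as the genotypes are compared. With the animal as a replicate block in limma-voom, 7 members and 37 pathway genes were called between tumors and lines, against 7 and 36 without it, and no member call changed. DESeq2 gave no adjusted p for Dll4 in tumors. Low counts limit Notch3 and Notch4 in most lines, and Dll4 and Hey1 in some, at 2 to 140 counts for Dll4 and 2 to 144 for Hey1.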
